A study of Mus musculus with 16 samples.

Results

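The 54 genes described here encode transcription factors that pattern the embryo and whose genes are classical targets of Polycomb repression. They were chosen by name, as the rows of the deposited expression table whose gene symbol is on a fixed list, and all 54 were found among the 23355 genes of the table. RNA was sequenced from 16 mouse brain tumours that model diffuse midline glioma, a tumour of childhood. The sample labels name 7 tumours made with H3.3K27M, a histone H3.3 in which methionine replaces lysine 27, and 9 tumours made with the unmutated histone, H3.3WT. Both groups were C57BL/6 mice of the Nestin Tv-a; p53 fl/fl genotype, untreated, and both received RCAS viruses carrying PDGFA and Cre beside the histone on postnatal day 3, with tumours taken at endpoint. The age at endpoint is not given in the sources used here. RCAS viruses enter only cells that make the receptor Tv-a, here driven by the Nestin promoter of neural progenitors, so Cre, which removes p53, and both transgenes reached those cells. The columns of the table are numbered, with 1 mean over libraries 10 to 16 and another over libraries 1 to 9. By group size libraries 10 to 16 must be H3.3K27M and libraries 1 to 9 H3.3WT, and every direction below rests on that assignment. The study's design text gives other numbers than the labels, 5 tumours for H3.3K27M and 3 for H3.3WT.

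Polycomb repressive complex 2 methylates lysine 27 of histone H3, and complex 1 binds the mark and ubiquitinates histone H2A. In most cell types the pair holds the genes of other lineages' regulators silent, often at promoters rich in CpG. The K27M histone interferes with the methyltransferase of complex 2, so in K27M gliomas the mark is lost from much of the genome and is kept at some strong Polycomb sites. Expression values alone show neither the mark nor Polycomb binding, so the name of the set is a statement about what is known of these genes and not about these tumours.

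Each library held between 11439144 reads (library 8) and 41730692 reads (library 16), and 16135 to 17656 genes had a read. Values below are normalized counts, read counts that the authors divided by 1 size factor per library. Where a gene had 0 reads, up to 3 could have been missed by counting error alone, worth 2.42 normalized counts in library 16 and 8.52 in library 8. Olig2 and Sox10, defining transcription factor genes of the oligodendrocyte lineage, averaged 28822 ± 13145 and 43650 ± 11585 normalized counts in H3.3K27M tumours (SD, n = 7). In H3.3WT tumours they averaged 26870 ± 7732 and 42247 ± 12426 (SD, n = 9). In bulk tumour RNA, fewer cells of a type and less RNA per cell cannot be told apart.

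Of the 54 genes, 24 reached 10 normalized counts in 7 or more libraries and were tested. Another 22 reached 10 normalized counts in 1 to 6 libraries and are called sporadic here. The last 8 (Pax7, Pax9, Isl2, Hand1, Hand2, Gata4, Pitx1 and Alx1) stayed under 10 in every library and are called trace genes. None was at 0 reads in all 16 libraries. Of all 23355 genes of the table, 15007 were tested and 19833 had at least 1 read. The trace genes had between 1 and 21 reads over the whole series, and the highest value of any was 5.42. Pitx1, a hindlimb and pituitary regulator, had a single read, in library 9 (H3.3WT), and Hand1, a heart regulator, had 2. For description each gene was sorted here under 1 role, although several, such as Foxa2 and Sall3 (both under neural tube), act in more than 1. Under this sorting the classes were uneven. Of 16 regulators of mesenchyme, craniofacial skeleton and limb, 12 were tested. So were 10 of 29 regulators of the neural tube and neuron identity, and 2 of 9 of heart, blood, endoderm and urogenital tract.

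**Figure D1:**
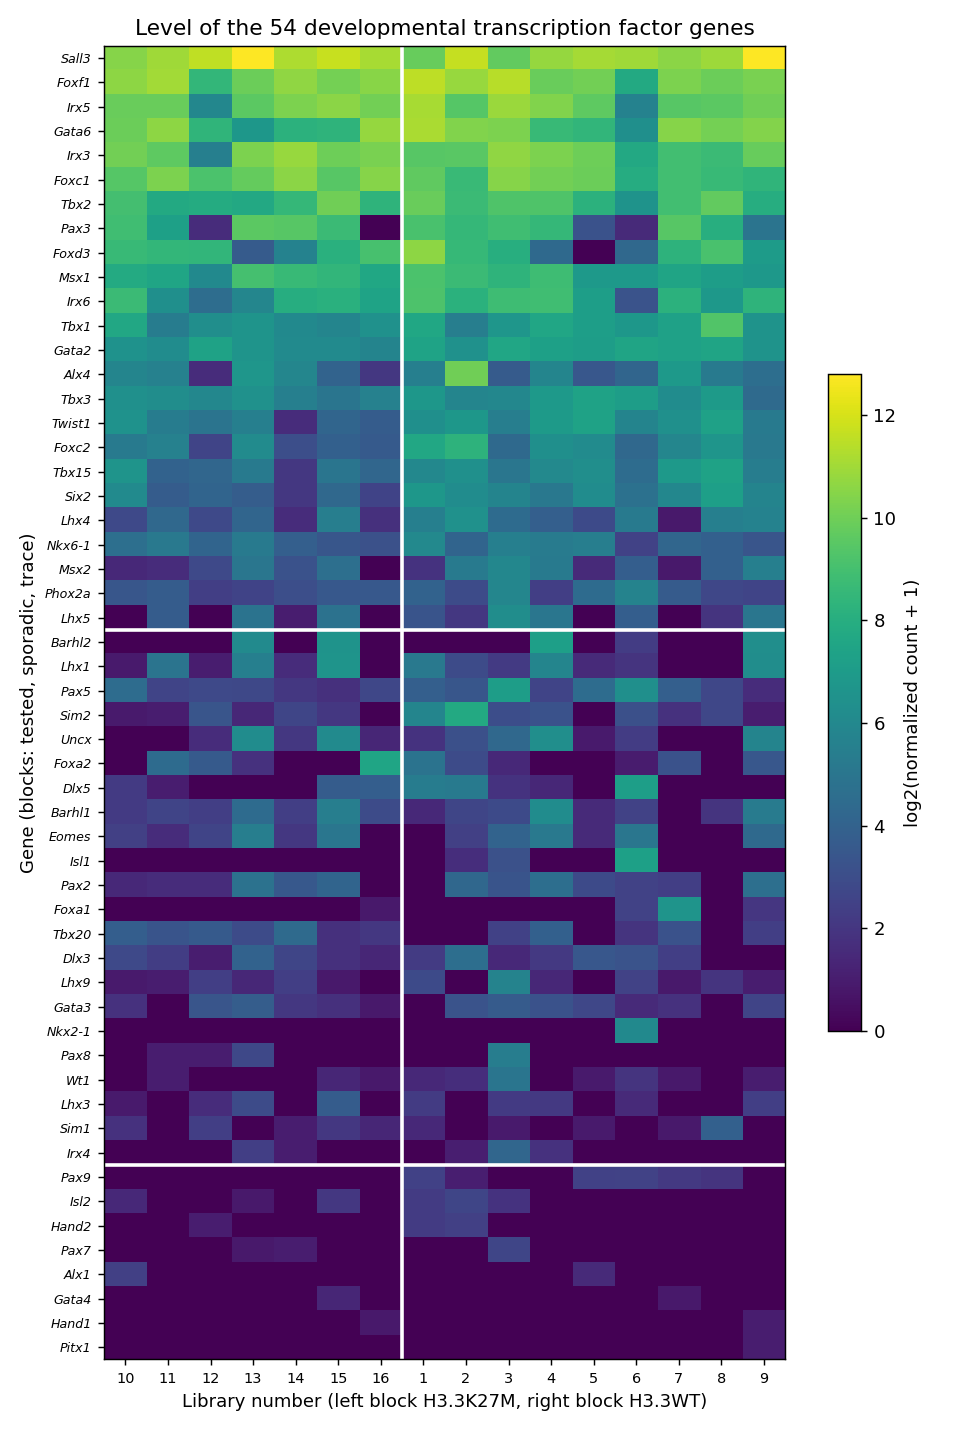
Each row is a gene and each column a library, coloured by log2(normalized count + 1), with the 7 H3.3K27M libraries to the left of the 9 H3.3WT libraries and white lines between tested, sporadic and trace genes. The tested genes hold values in most libraries of both groups, whereas the sporadic genes light up in a few libraries each.

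Promoters of the members were looked at for what they share beside their names. A RefSeq window of 300 bp (GRCm38.p6, 250 bp before to 50 bp after the start) was found for 34 of the 54 members, 12 tested, 18 sporadic and 4 trace genes. In these windows the ratio of observed to expected CpG had a median of 0.789, against 0.588 for all 16903 genes with a window, 0.744 for all tested genes and 0.132 for genes with 0 reads in all libraries. A window with a ratio above 0.6 and more than 50% G and C was found for 26 of the 34 members (76.5%), against 46.5% of all genes with a window, 64.6% of tested genes and 2.04% of genes with 0 reads. All 12 tested members with a window met both limits, as did 12 of 18 sporadic and 2 of 4 trace genes. No test was made of these shares. In some members the RefSeq start lay away from the gene start in the deposited data. The distance was 5135 bp in Lhx9, 1930 in Tbx1, 1802 in Nkx2-1, 488 in Pax2, 254 in Pax5, 247 in Barhl1 and 10 in Foxa1. Of these Lhx9, Nkx2-1 and Barhl1, all sporadic, missed the limits.

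**Figure D2:**
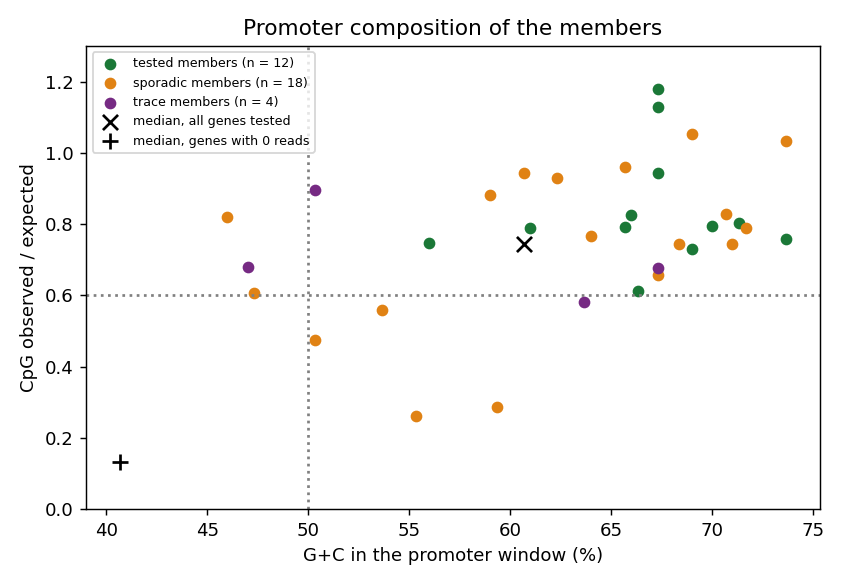
Each point is the promoter window of a member, by its G and C content (horizontal axis, %) and its ratio of observed to expected CpG (vertical axis), coloured by detection class. Black signs mark the medians of all tested genes (0.744) and of genes with 0 reads (0.132), and dotted lines the limits of 0.6 and 50%.

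The 250 bases upstream of 5 members are shown because these genes carry the results below. Six2 and Twist1 had the smallest p-values, and Irx3 was lowest in library 12 and next lowest in library 6. Isl1 was read almost only in library 6, and Barhl2 almost only in libraries 13, 15, 4 and 9. Sequences are RefSeq, GRCm38.p6, written 5′ to 3′ on the strand of the gene, with each CpG in capitals.
Six2, minus strand, chr17:85688255-85688504: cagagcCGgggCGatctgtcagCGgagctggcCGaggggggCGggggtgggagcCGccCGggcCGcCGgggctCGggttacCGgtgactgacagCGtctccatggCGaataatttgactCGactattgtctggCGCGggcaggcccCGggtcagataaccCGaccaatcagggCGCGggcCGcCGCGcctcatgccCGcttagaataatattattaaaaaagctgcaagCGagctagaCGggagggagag
Twist1, plus strand, chr12:33957421-33957670: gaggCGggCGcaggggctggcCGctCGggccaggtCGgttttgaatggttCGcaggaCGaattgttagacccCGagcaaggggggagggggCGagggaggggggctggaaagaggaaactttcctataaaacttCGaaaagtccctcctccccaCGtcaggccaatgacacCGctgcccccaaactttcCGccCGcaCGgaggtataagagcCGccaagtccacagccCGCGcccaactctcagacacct
Irx3, minus strand, chr8:91801655-91801904: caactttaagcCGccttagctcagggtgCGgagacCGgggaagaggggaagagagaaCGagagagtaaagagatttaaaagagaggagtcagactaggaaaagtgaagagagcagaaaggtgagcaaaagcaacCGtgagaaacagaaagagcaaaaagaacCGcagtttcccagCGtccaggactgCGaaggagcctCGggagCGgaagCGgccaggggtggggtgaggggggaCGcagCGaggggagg
Isl1, minus strand, chr13:116309689-116309938: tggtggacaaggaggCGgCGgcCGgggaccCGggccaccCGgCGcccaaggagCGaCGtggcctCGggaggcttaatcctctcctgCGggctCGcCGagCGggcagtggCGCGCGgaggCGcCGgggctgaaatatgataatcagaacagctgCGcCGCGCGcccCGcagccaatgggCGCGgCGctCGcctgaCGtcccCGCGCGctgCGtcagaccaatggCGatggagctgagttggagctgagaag
Barhl2, minus strand, chr5:106458167-106458416: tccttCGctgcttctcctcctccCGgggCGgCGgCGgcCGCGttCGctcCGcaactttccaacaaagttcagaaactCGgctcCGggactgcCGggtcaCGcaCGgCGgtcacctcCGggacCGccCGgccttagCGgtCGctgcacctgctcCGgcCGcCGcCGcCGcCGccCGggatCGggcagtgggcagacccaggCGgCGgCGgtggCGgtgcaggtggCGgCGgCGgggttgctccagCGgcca
These stretches hold 26 CpG in Six2, 18 in Twist1, 13 in Irx3, 33 in Isl1 and 36 in Barhl2. Among these 5 genes, chosen for other results, the count did not follow the level. Barhl2 and Isl1, with the most CpG, had no read in most libraries. Irx3, with the fewest, had the highest level per kb of the 5. Over all members with a window of 300 bp, the median CpG count was 28 in tested, 24.5 in sporadic and 17 in trace genes.

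Some of the genes were far from silent. On the scale of mean normalized counts per kb of exon, the highest levels were those of Foxf1 (573), Sall3 (357), Irx3 (326) and Irx5 (319), and these 4 were the only tested members above the median of all tested genes, 209. The tested members had a median of 41.5 on that scale. Olig2 stood at 10958 per kb, so even the highest members lay far below that lineage factor.

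Foxf1, a forkhead gene of lung and gut mesenchyme and of vessels, ranged over 351, 1481 and 2058 normalized counts (lowest, median, highest) in H3.3K27M tumours, against 217, 1177 and 2908 in H3.3WT tumours. Sall3, a spalt zinc finger gene of limb and nervous system, ranged over 1438, 2340 and 7080 in H3.3K27M tumours, against 841, 1909 and 7080 in H3.3WT tumours. The groups overlapped widely for both genes, and the highest Sall3 libraries were 13 (H3.3K27M) and 9 (H3.3WT). Their log2 fold changes, H3.3K27M minus H3.3WT, were -0.02 ± 0.45 for Foxf1 and 0.49 ± 0.38 for Sall3 (SE), with adjusted p of 0.988 and 0.547 by limma with Benjamini-Hochberg adjustment. Sall3 was 0.26 without library 13 and 0.72 without library 9. The sign for Foxf1 is not stable: it was positive in 9 of 30 other settings, among them 3 that removed a trend or a score.

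No member passed the threshold across all genes. Of 15007 genes tested by limma with Benjamini-Hochberg adjustment, 0 had an adjusted p under 0.05, which is 0% of those tested, and edgeR's quasi-likelihood test, run on whole reads, also called 0. DESeq2's Wald test called 113 genes (0.753%), none of them a member. At an unadjusted limma p under 0.05, 5 of the 24 tested members were lower in H3.3K27M tumours and 0 were higher, where 6.61% of all tested genes were lower and 8.7% higher at that level. With edgeR 7 were lower (background 7.78%) and 0 higher (background 8.09%), the 7 being the same 5 with Tbx1 and Phox2a. Of the 24, 19 had a negative log2 fold change, against 49.5% of all tested genes (with edgeR also 19, against 52.1%), and the median was -0.60, against 0.005 over all tested genes. By role, 10 of the 12 tested regulators of mesenchyme, craniofacial skeleton and limb had a negative fold change (median -0.89), as did 7 of 10 of the neural tube and neuron identity (median -0.33) and both tested genes of heart, blood, endoderm and urogenital tract, Gata2 and Gata6. These counts cover only members that passed the filter, and no test was made over the members as a set.

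**Figure D3:**
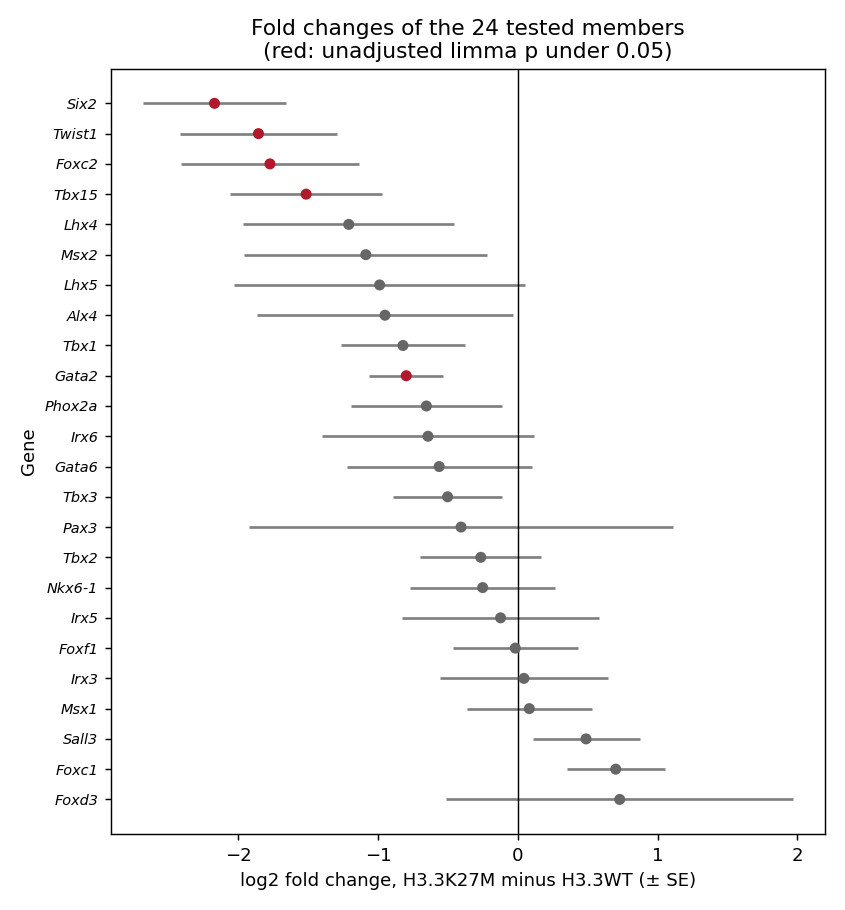
Points are the log2 fold changes (H3.3K27M minus H3.3WT, horizontal axis) of the 24 tested members, with bars for the SE, and red marks an unadjusted limma p under 0.05. The 5 red points, from Six2 at -2.17 to Gata2 at -0.80, lie left of 0, and most other bars reach close to or across 0.

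The 5 genes with an unadjusted p under 0.05 are Six2, Twist1, Gata2, Foxc2 and Tbx15. All but Gata2 are regulators of mesenchyme. Each lay below the H3.3WT median in 6 of the 7 H3.3K27M tumours, and in each the groups overlapped. No tested member had groups without overlap, as 0.0333% of all tested genes did.

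Six2 keeps nephron progenitors of the kidney undifferentiated and also acts in head mesenchyme (mm10, chromosome 17, 85684268 to 85688254). It had 69.4, 12.2, 16.4, 12.5, 3.18, 18.8 and 4.85 normalized counts in the H3.3K27M libraries 10 to 16, against 109, 74.8, 52.7, 33.8, 74.6, 26.6, 59.5, 148 and 53.5 in the H3.3WT libraries 1 to 9. In 6 of the 7 H3.3K27M tumours Six2 lay under the lowest H3.3WT value, and library 10 lay among the H3.3WT values. The log2 fold change was -2.17 ± 0.51 (SE), with an unadjusted p of 4.5e-04 and an adjusted p of 0.257 by limma. Without library 10, the H3.3K27M library among the H3.3WT values, it was necessarily larger, -2.56 ± 0.45 with an adjusted limma p of 0.0451, and 13 of 14949 genes passed in that fit. With any other single library left out the adjusted limma p of Six2 lay between 0.120 and 0.501. In the authors' deposited table Six2 has an adjusted p of 0.0429, the 1 member under 0.05 there, where 213 genes (1.41%) stand under that value.

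Twist1, a basic helix-loop-helix gene of cranial mesoderm and of mesenchymal states (chromosome 12, 33957671 to 33959831), ranged over 2.12, 29.7 and 91.0 normalized counts in H3.3K27M tumours, against 38.0, 84.1 and 167 in H3.3WT tumours. The 4 H3.3K27M libraries 12, 14, 15 and 16 lay under the lowest H3.3WT value. Its log2 fold change was -1.86 ± 0.56 (unadjusted p = 0.00392, adjusted p = 0.257 by limma).

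Foxc2, a forkhead gene of paraxial mesoderm and lymphatic vessels (chromosome 8, 121116171 to 121118894), ranged over 5.12, 13.9 and 71.9 in H3.3K27M tumours, against 19.0, 70.9 and 307 in H3.3WT tumours. Tbx15, a T-box gene of skeleton and dermis (chromosome 3, 99253760 to 99354260), ranged over 3.18, 17.8 and 97.1 in H3.3K27M tumours, against 21.8, 63.4 and 162 in H3.3WT tumours. In both genes 4 H3.3K27M libraries lay under the lowest H3.3WT library. Their log2 fold changes were -1.77 ± 0.64 and -1.52 ± 0.54, each with an adjusted limma p of 0.261.

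Gata2, needed in blood stem cells and also made in endothelium and in midbrain neurons (chromosome 6, 88198664 to 88207032), ranged over 54.1, 72.3 and 166 in H3.3K27M tumours, against 86.7, 157 and 189 in H3.3WT tumours. Its difference was the smallest of the 5 and also had the smallest SE, -0.80 ± 0.27 on the log2 scale (adjusted p = 0.258 by limma). None of the 5 genes shares exon bases with another annotated gene in GENCODE M21.

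**Figure D4:**
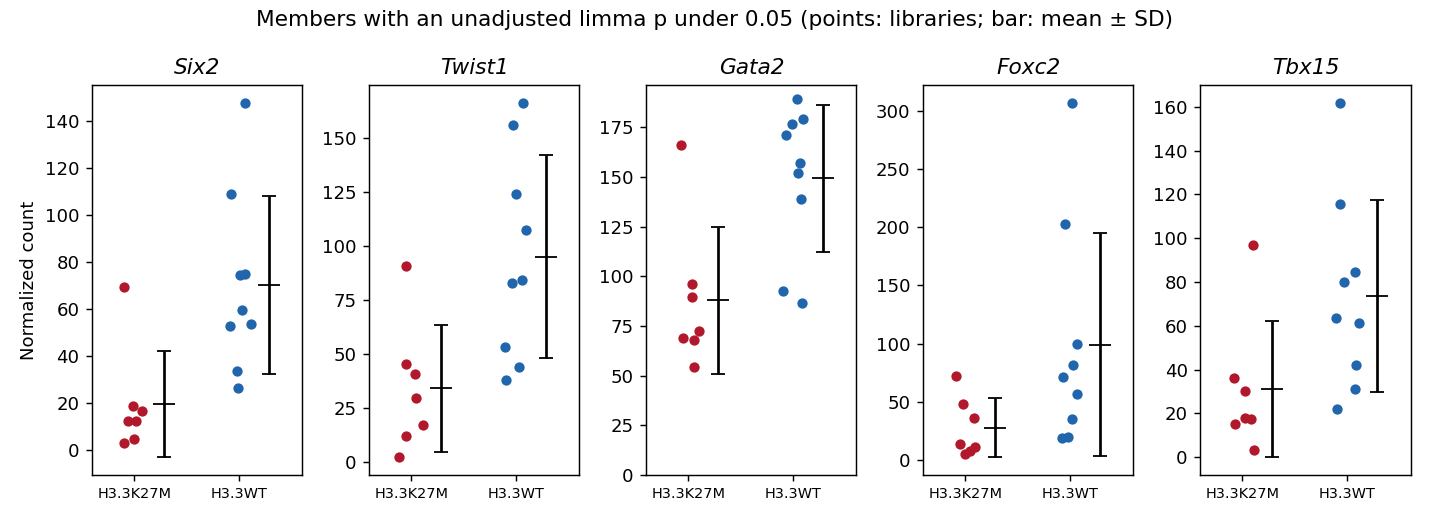
Points are the normalized counts (vertical axis, linear) of 5 genes in the 7 H3.3K27M libraries (left in each panel) and the 9 H3.3WT libraries (right), and black bars show the mean ± SD. Most H3.3K27M points sit under the H3.3WT points, and in Six2, Twist1 and Tbx15 the highest H3.3K27M point is library 10.

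Markers of vessel walls, fibroblasts and endothelium were set beside these genes. Of 20 listed pericyte, smooth muscle and fibroblast markers, 19 were tested, 15 of those had a negative log2 fold change (median -0.48) and 0 passed adjustment. The summed level of the 20 ranged over 115852, 190353 and 320411 normalized counts (lowest, median, highest) in H3.3K27M tumours, against 73796, 135147 and 256817 in H3.3WT tumours, so its median was higher in H3.3K27M tumours. The list holds Pdgfra and Cspg4, which oligodendrocyte progenitors also make and which dominate that sum. Without these 2 genes, a trimming chosen after the values had been seen, the order of the medians turned round: the summed level ranged over 7227, 13397 and 28308 in H3.3K27M tumours, against 8338, 21374 and 41572 in H3.3WT tumours. The summed level of 12 meningeal fibroblast markers ranged over 1614, 2146 and 6696 in H3.3K27M tumours, against 1303, 4042 and 11641 in H3.3WT tumours, and of the 11 tested 6 had a negative and 5 a positive fold change (median -0.27). That of 18 endothelial markers ranged over 9805, 17977 and 25945 in H3.3K27M tumours, against 10963, 26993 and 42612 in H3.3WT tumours, and 15 of the 18 had a negative fold change. No marker of these 3 lists was at 0 in all libraries.

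With the mean log2 level of the pericyte, smooth muscle and fibroblast markers as a covariate, 3 members (Six2, Twist1 and Gata2) stayed at an unadjusted limma p under 0.05 (background 3.98%), all lower, and 0 were higher (background 4.74%). Of the 24 tested members 15 then had a negative fold change, against 48.7% of all tested genes, with a median of -0.37. Six2 then had a log2 fold change of -1.81 ± 0.51, Foxc2 of -1.17 ± 0.58 and Tbx15 of -0.94 ± 0.46 (SE). The covariate was taken from the full list, with Pdgfra and Cspg4, and no endothelial covariate was fitted. The part that vessel wall cells, fibroblasts or endothelium play in these differences was not tested.

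The other 19 tested members had adjusted limma p-values between 0.345 and 0.988 and log2 fold changes between -1.21 and 0.73, 14 of them negative and 5 positive. Among the mesenchymal regulators, Tbx1, the T-box gene of the pharyngeal arches, ranged over 40.7, 79.9 and 202 normalized counts in H3.3K27M tumours, against 43.4, 141 and 645 in H3.3WT tumours, the highest value being that of library 8. Foxc1, the paralogue of Foxc2 and a gene of meninges and pericytes, ran the other way, with 566, 858 and 1538 in H3.3K27M tumours, against 241, 479 and 1407 in H3.3WT tumours. Every H3.3K27M library lay above the H3.3WT median of Foxc1, and the ranges overlapped. Its log2 fold change was 0.70 ± 0.35 (SE), with an adjusted limma p of 0.345.

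Tbx3, a limb and mammary gland regulator, was under the H3.3WT median in each H3.3K27M tumour, with 30.3, 60.4 and 86.9 in H3.3K27M tumours, against 20.6, 109 and 162 in H3.3WT tumours. Its H3.3WT range enclosed the whole H3.3K27M range, and its adjusted limma p was 0.541. Alx4, a paired-like gene of the skull, showed how far 1 library can set a mean: it had 2.05, 48.9 and 106 in H3.3K27M tumours, against 10.1, 36.9 and 1050 in H3.3WT tumours, the last value in library 2 and 63.4% of the sum over the series. Msx1, of limb and tooth mesenchyme, and Tbx2, of heart and limb, were at 10 or more in every library, with adjusted limma p-values of 0.947 and 0.795.

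Gata6, an endoderm and heart regulator also made in vascular smooth muscle, ranged over 108, 332 and 1734 normalized counts in H3.3K27M tumours, against 81.6, 1212 and 2265 in H3.3WT tumours. Foxd3 and Pax3, which specify neural crest, varied more between tumours than between groups. Foxd3 ranged over 11.7, 342 and 527 in H3.3K27M tumours, against 0, 263 and 1587 in H3.3WT tumours, and Pax3 over 0, 422 and 745 in H3.3K27M tumours, against 1.90, 365 and 703 in H3.3WT tumours. The SE of their log2 fold changes, 1.24 and 1.52, exceeded the changes themselves, 0.73 and -0.41.

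The tested members with the lowest mean levels per kb of exon were Lhx4 (4.38), Msx2 (5.43), Lhx5 (5.47), Phox2a (7.33) and Nkx6-1 (7.98), all but Msx2 regulators of the neural tube and of neurons. Lhx4, a LIM homeobox gene of motor neurons and pituitary, ranged over 2.12, 6.14 and 43.4 normalized counts in H3.3K27M tumours, against 0.850, 36.1 and 88.9 in H3.3WT tumours. Its log2 fold change of -1.21 ± 0.75 (SE) was the most negative of the 19, with an adjusted limma p of 0.439. Lhx5, of Purkinje cells and interneurons, was at 10 or more in 3 H3.3K27M tumours and 4 H3.3WT tumours, with a highest value of 28.4 in H3.3K27M tumours and 75.0 in H3.3WT tumours. Both genes overlapped between the groups over most of their range. Nkx6-1, of ventral neural progenitors and pancreatic beta cells, and Phox2a, of autonomic and cranial motor neurons, had medians of 16.4 and 9.54 in H3.3K27M tumours, against 17.8 and 11.9 in H3.3WT tumours. Phox2a was highest in libraries 3 and 6 (H3.3WT), at 57.2 and 52.2. Msx2, the paralogue of Msx1, ranged over 0, 6.14 and 30.9 in H3.3K27M tumours, against 0.850, 14.2 and 59.0 in H3.3WT tumours.

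The sporadic genes were read in libraries of both groups. Of the values of the 22 sporadic genes, 16.9% (26 of 154) reached 10 normalized counts in H3.3K27M libraries and 20.7% (41 of 198) in H3.3WT libraries. These values share genes and libraries, and the genes were classed by the same limit of 10. The percentages therefore only describe the set and do not compare the groups. Of the 22, 12 reached 10 in libraries of both groups, 9 in H3.3WT libraries alone and 1, Lhx3, in an H3.3K27M library alone. Of those in H3.3WT alone, Pax8, Irx4, Wt1 and Lhx9 reached 10 only in library 3, and Isl1 and Nkx2-1 only in library 6. The groups hold 9 H3.3WT and 7 H3.3K27M libraries, and the same count was not made over all genes. It is therefore not a result about the groups. For 10 of the 22, more than 50% of the sum over all libraries came from a single library.

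A block of neuronal regulators was high in the same 4 libraries, 13 and 15 (H3.3K27M) and 4 and 9 (H3.3WT). Barhl1 and Barhl2, homeobox genes of cerebellar granule cells and of brainstem and spinal neurons, reached 10 normalized counts in these 4 libraries and in no other. Barhl2 had 69.4 and 94.9 normalized counts in libraries 13 and 15, against 149 and 78.2 in libraries 4 and 9. In 11 of the other 12 libraries it had no read, and library 6 held 3.80. Lhx1, the LIM homeobox gene of Purkinje cells and of kidney, had 45.1 and 97.3 in libraries 13 and 15, against 55.7 and 75.1 in libraries 4 and 9. It also reached 29.5 in library 11 (H3.3K27M) and 35.2 in library 1 (H3.3WT).

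Uncx, a homeobox gene of somites and midbrain neurons, had 73.6 and 69.5 in libraries 13 and 15, against 79.4 and 53.5 in libraries 4 and 9, and at most 18.8 elsewhere. Eomes, the T-box gene of unipolar brush cells and cortical progenitors, and Pax2, the paired box gene of cerebellar interneurons and kidney, stood out less. Eomes had 42.6 and 31.1 in libraries 13 and 15, and 35.5 and 19.5 in libraries 4 and 9. It also had 31.3 in library 6 and 16.1 in library 3 (both H3.3WT). Pax2 had 27.6 and 16.4 in libraries 13 and 15, and 23.7 and 24.7 in libraries 4 and 9. It also had 18.4 in library 2 (H3.3WT) and 10.6 in library 14 (H3.3K27M). Some markers of cerebellar neurons were high in the same libraries. Gabra6, a receptor subunit gene of granule cells, had 361 and 406 normalized counts in libraries 13 and 15, against 621 and 504 in libraries 4 and 9, and at most 13.8 in any other. Neurod1 had 301 and 304 in libraries 13 and 15, against 446 and 388 in libraries 4 and 9, and at most 6.11 elsewhere. The 10 cerebellar markers, listed after the members' values had been seen, summed to 1279, 2483 and 8989 in H3.3K27M tumours (lowest, median, highest), against 1249, 3503 and 11705 in H3.3WT tumours. The sum was 8989 and 8943 in libraries 13 and 15, and 11705 and 8222 in libraries 4 and 9. It was also 7239 in library 6 (H3.3WT), where Zic1, at 4568, made up most of it, Gabra6 had no read, and Barhl1 and Barhl2 stayed under 5. In the other 11 libraries it was at most 3611. The part of normal cerebellar tissue in the levels of these members was not tested.

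Libraries 6 (H3.3WT) and 12 (H3.3K27M) stood apart in the Iroquois genes, homeobox genes that pattern the neural tube behind the anterior forebrain. Irx3, Irx5 and Irx6 lie together on chromosome 8. In library 12 they had 45.1, 60.4 and 22.5 normalized counts and in library 6 they had 210, 50.3 and 8.54. In every other library Irx3 and Irx5 held at least 426 and 688, and Irx6 at least 58.5. Six3, a gene of the anterior forebrain, was high in exactly these libraries, with 401 in library 12 and 1108 in library 6, and at most 2.68 elsewhere. It is 1 of 11 ventral forebrain markers, listed after the members' values had been seen. The list as a whole set library 12 apart far less than Six3 did. Its sum was 9283 in library 6 and 2768 in library 12, and at most 1955 elsewhere (library 4, H3.3WT).

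Library 6 also held nearly all reads of 2 further members. Nkx2-1, a gene of the ventral forebrain, thyroid and lung, had 65.5 normalized counts in library 6 and no read in the other 15. Isl1, of motor neurons, striatal neurons and heart, had 155 in library 6, or 93.8% of its sum. Dlx5, of forebrain interneurons and branchial arches, had 141 there and at most 40.6 elsewhere. Dlx1, from the same marker list as Six3, had 1504 in library 6 and at most 33.5 elsewhere. No such values of Nkx2-1, Isl1 or Dlx5 were seen in library 12, where each had no read. Library 6 stood apart in markers of normal brain cells too, with the highest summed level of neuron markers (100192, next highest 56308), astrocyte markers (144999, next highest 101671) and myelinating oligodendrocyte markers (221867, next highest 92680). Its sum of oligodendrocyte progenitor markers, 225775, was the second lowest of the 16 libraries. The part of these cells in the levels of Nkx2-1, Isl1, Dlx5 and the Iroquois genes in library 6 was not tested.

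**Figure D5:**
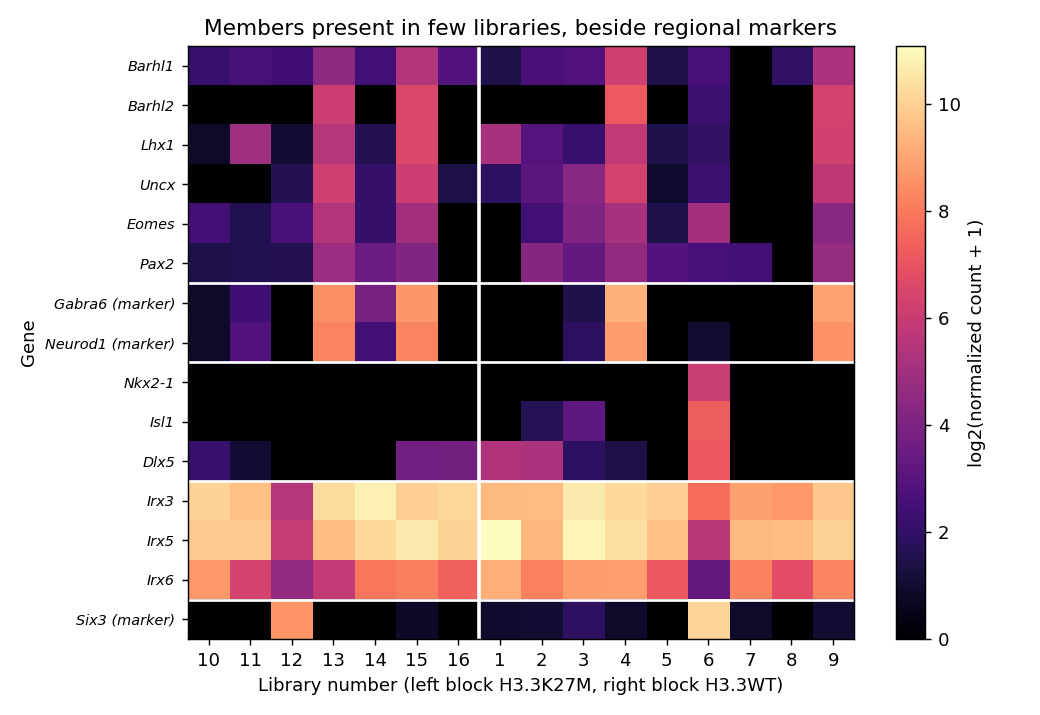
Colour shows log2(normalized count + 1) of members, and of 3 marker genes, in the 7 H3.3K27M libraries (left) and the 9 H3.3WT libraries (right). The colour scale is shared by all rows. Within their own rows, Barhl2, Lhx1, Uncx, Gabra6 and Neurod1 are brightest in libraries 13, 15, 4 and 9. Irx3, Irx5 and Irx6 are each darker in libraries 12 and 6 than in any other library, and Six3 is brightest there.

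Because of those libraries, groups could not be compared for the Iroquois genes with any precision. Irx3 ranged over 45.1, 1070 and 1791 in H3.3K27M tumours, against 210, 741 and 1609 in H3.3WT tumours, and Irx5 over 60.4, 932 and 1535 in H3.3K27M tumours, against 50.3, 791 and 2181 in H3.3WT tumours. Their log2 fold changes of 0.04 ± 0.60 and -0.12 ± 0.70 (SE) changed sign with the settings. Without library 12 the change was 0.71 for Irx3 and 0.46 for Irx5, and without library 6 it was -0.17 for Irx3 and -0.61 for Irx5. None of these had an adjusted limma p under 0.296.

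Levels of neighbouring members were compared across tumours, for 4 pairs on chromosome 8. On the log2 scale over 16 libraries, Irx5 and Irx6 had Pearson's r of 0.89 (permutation p = 6.0e-05, adjusted p = 2.4e-04 over 4 pairs) and Spearman's rho of 0.67 (permutation p = 0.00597, adjusted p = 0.0208). Without libraries 6 and 12, the farthest from the median, r was 0.60. Within the groups r was 0.80 in H3.3K27M (exact permutation p = 0.0137, adjusted p = 0.0548) and 0.96 in H3.3WT tumours (exact permutation p = 8.5e-04, adjusted p = 0.00338). Spearman's rho was 0.64 in H3.3K27M (exact permutation p = 0.139, adjusted p = 0.556). In H3.3WT tumours it was 0.85 (exact permutation p = 0.00607, adjusted p = 0.0243). In H3.3K27M r was 0.58 without libraries 12 and 15, and in H3.3WT it was 0.66 without libraries 1 and 6. Irx3 and Irx5 had r of 0.85 (permutation p = 0.00111, adjusted p = 0.00222) and rho of 0.63 (permutation p = 0.0104, adjusted p = 0.0208). Within the groups r was 0.97 in H3.3K27M (exact permutation p = 0.0556, adjusted p = 0.0741) and 0.82 in H3.3WT tumours (exact permutation p = 0.00962, adjusted p = 0.0178). Spearman's rho was 0.32 in H3.3K27M and 0.63 in H3.3WT tumours. In H3.3K27M r was -0.17 without libraries 12 and 14, and in H3.3WT it was 0.33 without libraries 3 and 6. For Irx3 and Irx5 r was 0.41 without libraries 6 and 12, so this relation rests on those libraries. Irx3 and Irx6 had r of 0.68 (permutation p = 0.00925, adjusted p = 0.0123) and rho of 0.34 (permutation p = 0.193, adjusted p = 0.257), and r was 0.12 without the same libraries. Foxf1 and Foxc2, which lie 28017 bp apart on chromosome 8, had r of 0.37 (permutation p = 0.157, adjusted p = 0.157) and rho of 0.16 (permutation p = 0.557, adjusted p = 0.557).

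Single libraries held most of several other members. Library 3 (H3.3WT) had the highest value of 10 members, more than any other library. Pax5, a gene of the midbrain-hindbrain boundary and of B cells, had 137 normalized counts there and 80.7 in library 6, and at most 22.1 elsewhere. The part of B cells in these Pax5 levels was not tested. Pax8, the paralogue of Pax5, had 42.0 in library 3 and at most 5.85 elsewhere, and Lhx9, a gene of limb, gonad and thalamic neurons, had 51.8 there and at most 6.31 elsewhere. Foxa2, a gene of floor plate and endoderm, had 182 in library 16 (H3.3K27M) or 66.6% of its sum. Foxa1, its paralogue, had 96.0 in library 7 (H3.3WT) and at most 4.75 elsewhere. Sim2, a gene of the ventral neural tube and of muscle precursors, had 220 in library 2 (H3.3WT), or 66.7% of its sum. The other sporadic genes, Gata3, Irx4, Wt1, Sim1, Lhx3 and Dlx3, had highest values between 12.3 (Lhx3, library 15) and 30.4 (Wt1, a kidney and gonad gene, library 3).

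With every gene that had a read in the fit, all 54 members could be fitted, and 36 had a negative log2 fold change, against 50.1% of all genes. At an unadjusted limma p under 0.05 stood 6 lower members (background 5.52%) and 1 higher (background 7.17%), and 0 passed adjustment. The 2 members that the filter had kept out were Pax9, a gene of teeth and thymus, and Tbx20, a heart gene. Pax9 had no read in any H3.3K27M tumour, against 6 of 9 H3.3WT tumours with 1.08 to 4.75 normalized counts. That level is about that of the limit a count of 0 allows, and Pax9 shares 3.74% of its exon bases with Slc25a21 on the opposite strand. Tbx20 had 2.45, 9.16 and 20.2 in H3.3K27M tumours, against 0, 2.85 and 14.4 in H3.3WT tumours.

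The genes of the Polycomb complexes were read as well, and none passed adjustment. Of 13 listed subunits and cofactors of complex 2, 11 were in the table and tested; 8 had a positive and 3 a negative log2 fold change (median 0.22), none at an unadjusted limma p under 0.05. Ezh2, the methyltransferase, ranged over 2001, 2209 and 2870 normalized counts in H3.3K27M tumours, against 532, 2157 and 3197 in H3.3WT tumours. Jarid2, which guides the complex to its targets, averaged 2667 ± 233 in H3.3K27M (SD, n = 7) and 2295 ± 322 in H3.3WT tumours (SD, n = 9; log2 fold change 0.22 ± 0.11).

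All 21 listed genes of complex 1 were tested, and 5 were higher at an unadjusted limma p under 0.05 (background 8.7%) with none lower. Kdm2b, which binds unmethylated CpG and recruits a form of complex 1, averaged 1722 ± 597 in H3.3K27M (SD, n = 7) and 961 ± 469 in H3.3WT tumours (SD, n = 9). Its log2 fold change was 0.90 ± 0.31, with an adjusted limma p of 0.259. Phc3, a polyhomeotic subunit, averaged 3516 ± 777 in H3.3K27M and 2461 ± 681 in H3.3WT tumours (SD, same n). None of these genes, nor the lysine 27 demethylase genes Kdm6a and Kdm6b, passed adjustment in any of 30 other settings either.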

How the data were processed

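Tumour RNA was made into TruSeq mRNA libraries and read singly for 50 bp, per the labels' protocols. STAR 2.7, HTSeq and DESeq2 with the mm10 genome are named in the submitters' processing notes; no role or strand setting is given there. The deposited values of each library are a signal. They proved to be reads scaled by a library's size factor: 100% of values were whole multiples of the smallest value above 0 (within 0.01 reads). Per the file headers, the authors also deposited a log2 fold change, a Wald score and p-values. Deposited gene starts count from 0 and are given here counted from 1.

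Of 23563 lines with values (1 more was emptied), 208 lines repeating an Ensembl ID were removed. Log2(value + 1) was tested by limma 3.58.1 (trend option, threshold 0.05) over genes reaching 10 normalized counts in 7 or more libraries. This scale understates changes of low genes. edgeR 4.0.16 and DESeq2 1.42.0 in R 4.3.3 were run on the recovered reads, and the steps were tested on simulated counts. Exon lengths came from GENCODE M21. In 17 members some exon bases are shared with another gene, mostly antisense, so reads there cannot be told apart without strand.

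Fold changes with errors are given for members at an unadjusted p under 0.05, for the 4 highest per kb and for those described beside them; other members are given by their levels. The members and gene lists were chosen with earlier results of these data known. The cerebellar and forebrain lists, and the pericyte list without 2 genes, were added after the members' values had been seen. The design text calls the tumours independent. In 10 of the 16 labels a code in the source name is shared with another label, and its meaning is not known here. P-values measure the spread between libraries and take no account of that code. No library can be tied to a labelled tumour.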

Additional observations from a re-analysis of the deposited data

Results flagged for a closer look

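Dixon's 95% critical value was applied to 48 groups of log2 levels of tested members (24 genes, H3.3K27M and H3.3WT each). In 5 of the 48 the lowest library lay farther from the next than it allows. For a single group chance gives about 1 in 20. The groups share the same libraries and all 5 flags fall on libraries 6 and 12. They are therefore not independent, and whether 5 exceeds chance was not tested. In H3.3K27M tumours library 12 was low for Irx3 (45.1 normalized counts, against 787 to 1791 in the other 6) and for Irx5 (60.4, against 764 to 1535). In H3.3WT tumours library 6 was low for Irx5 (50.3, against 688 to 2181 in the other 8), for Irx6 (8.54, against 111 to 597) and for Foxf1 (217, against 931 to 2908). Libraries 6 and 12 are those with the highest Six3.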

How the results depend on the processing

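The fit was repeated in 30 other settings. The number of genes past the threshold, 0 with limma, was 113 with DESeq2 and 2 with limma voom with quality weights, and ran from 0 to 13 with 1 library left out. The number of members past it ran from 0 to 1 with 1 library left out (Six2, without library 10) and was 0 in all other settings. Members with a negative fold change numbered 36 of 54 with no filter beyond 1 read, 14 of 19 with at least 1 CPM in 7 libraries, and 15 to 21 of the 22 to 24 tested in the other settings. The median over tested members stayed negative in all 30, from -0.76 without library 6 to -0.28 with no filter. Members at an unadjusted p under 0.05 numbered 3 with the mural and fibroblast score as a covariate and 5 to 7 elsewhere. With tested defined as at least 1 read in 7 libraries, 40 members were tested and 6 sporadic, in place of 24 and 22. The fold changes of Six2, Twist1, Gata2, Foxc2, Tbx15 and Sall3 kept their sign in all 30 settings; Sall3 ran from 0.26 to 0.72. With 1 library left out, Foxf1 ran from -0.32 to 0.27, Irx3 from -0.18 to 0.71 and Irx5 from -0.61 to 0.46. Foxf1 was 0.12 with voom, 0.15 with the length trend removed, 0.040 with the GC trend removed and 0.041 with the mural score as a covariate. Irx3 was -0.31 without libraries 6 and 8 and -0.0062 with the neuron score as a covariate. Irx5 was 0.17 with the GC trend removed and 0.0041 with the mural score. The cause of these shifts was not tested. No paired analysis was possible because the table's columns carry no replicate number of the labels. Library 8, with the fewest reads, limits the lowest genes most.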
